A study of Mus musculus with 12 samples.

Results

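The genes described here encode the subunits of the mitochondrial respiratory chain and of the ATP synthase. They were taken by name from the protein-coding rows of a gene count table: the Nduf genes of complex I, Sdha to Sdhd of complex II, the Uqcr genes of complex III, Cox4 to Cox8 of complex IV, the Atp5 genes of the ATP synthase and every gene with the prefix mt-. The rule found 107 members among 54446 rows, of which 94 are nuclear-encoded and 13 are encoded by mitochondrial DNA. By class, 36 belong to complex I, 4 to complex II, 8 to complex III, 20 to complex IV and 17 to the ATP synthase, while 8 are complex I assembly factors (Ndufaf genes) and 1 is the ATP synthase related gene Atp5s. The count filter left 99 members to test, 88 nuclear and 11 mitochondrially encoded. The 8 untested members were a second row named Atp5o, Cox4i2, Cox6b2, Cox7b2, Cox8b, Cox8c, mt-Co3 and mt-Nd4l, so none of the counts below covers all 107.

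The samples came from NIH3T3, an established mouse embryonic fibroblast line, either wild type or carrying a deletion of the N-VEGF coding region of Vegfa (ΔN-VEGF cells). Each line was kept in normoxia or placed for 16 h in a hypoxia chamber held below 0.2% oxygen, with 3 samples in each of the 4 groups and 12 in all. Per the study's methods the ΔN-VEGF line was made from picked clones with genome editing and recombinase steps that the wild-type cells did not undergo, so the deletion and the clonal history cannot be told apart. The labels call the samples triplicates without naming separate cultures, so p-values measure the spread between these samples, which may be technical. In bulk RNA of this kind, less RNA per cell and fewer cells carrying it cannot be told apart.

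The respiratory chain passes electrons from NADH, at complex I, and from succinate, at complex II, through complex III to complex IV, where oxygen is the last acceptor. Complexes I, III and IV pump protons, and the ATP synthase uses the gradient to make ATP. Complexes I, III, IV and the ATP synthase are mosaics of nuclear-encoded subunits and subunits made inside the organelle from mitochondrial DNA, whereas complex II is wholly nuclear. Cells short of oxygen are known to restrain respiration and to exchange some subunits for hypoxic isoforms, of which Cox4i2 and Ndufa4l2 are the best known.

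Totals ran from 30519052 to 43056690 counts per sample. Fibroblast markers were abundant, with Vim, an intermediate filament gene, at 223032 counts or more in every sample, and all 7 fibroblast markers passed the count filter. Of the markers of other cell types, epithelial Epcam and muscle Myod1 had 0 counts in every sample, leukocyte Ptprc 0 to 2 and endothelial Pecam1 9 to 23. Others were detected: epithelial Cdh1 ran from 12 to 99 counts, muscle Des from 44 to 301, and Cdh5, an endothelial cadherin, from 56 to 795, highest in hypoxic ΔN-VEGF cells. A part of those genes in the results below was not tested. Genes that low oxygen induces in most cells rose in both lines, 4 of 4, among them Car9, a carbonic anhydrase, by a log2 fold change of 5.38 in the wild type and 5.84 in the ΔN-VEGF line.

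Wild-type normoxia sample 2 stood apart from the other wild-type normoxia samples. Its log2 levels correlated with theirs at r of 0.956 and 0.957 across genes, against 0.996 between the other two samples. Over the 99 tested members its root mean square log2 difference was 0.802 from those samples and 0.356 from the ΔN-VEGF normoxia samples, against 0.354 between those wild-type samples themselves. Over all 14724 tested genes the differences were 1.02 and 0.707, against 0.272, so that over all genes it lay far from both groups. Vegfa, the edited gene, counted over its whole length, measured 86.2, 39.4 and 82.7 CPM in wild-type normoxia and 34.2 to 37.3 in ΔN-VEGF normoxia, which puts this sample near the latter. Whether the sample was mislabelled or mixed with the other line was not tested, and each wild-type normoxia value with all samples takes its label as given. It lay above both other wild-type normoxia samples in 73 of 88 nuclear members and below both in 12. Class counts, and the values of the members described that change call or move by more than 1.5 times, are therefore also given without it. ΔN-VEGF normoxia sample 2 also differed from its group, at r of 0.986 with each of the other two.

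In hypoxia, more members fell than rose in both lines, and the counts were larger in the ΔN-VEGF line. In wild type 17 of 99 members fell (17.2%) and 2 rose (2.02%), where 18.3% of all 14724 tested genes were called lower and 18.2% higher. The wild-type count of falls is thus near the background, and that of rises below it. In the ΔN-VEGF line 47 members fell (47.5%) and 9 rose (9.09%), against 26.4% of all genes called lower and 26.9% called higher. The median log2 fold change of the members was -0.14 in wild type and -0.38 in the ΔN-VEGF line, beside medians of -0.07 and -0.01 over all tested genes. A call means an adjusted p below 0.05 in edgeR's quasi-likelihood test.

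All 17 members that fell in wild type also fell in the ΔN-VEGF line, and both that rose in wild type, Ndufv3 and Cox7a1, rose there too. A further 30 members were called lower and 7 higher in the ΔN-VEGF line alone, which does not by itself show that the lines differ. Across the 88 nuclear members the responses of the lines, which share no samples, had a Pearson r of 0.762 and a Spearman rho of 0.734, beside r of 0.791 over all tested genes. With wild-type normoxia sample 2 left out, the wild-type response held 22 falls and 21 rises among 100 tested members with a median of 0.04. The background was then 26.9% lower and 27.1% higher. Of the 17 falls 16 were kept, and both rises were kept. The sample is not in the ΔN-VEGF comparison but bears on its count filter and estimate of spread, and without it 68 members fell and 12 rose there, against 34.3% lower and 32.8% higher of all genes.

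**Figure D1:**
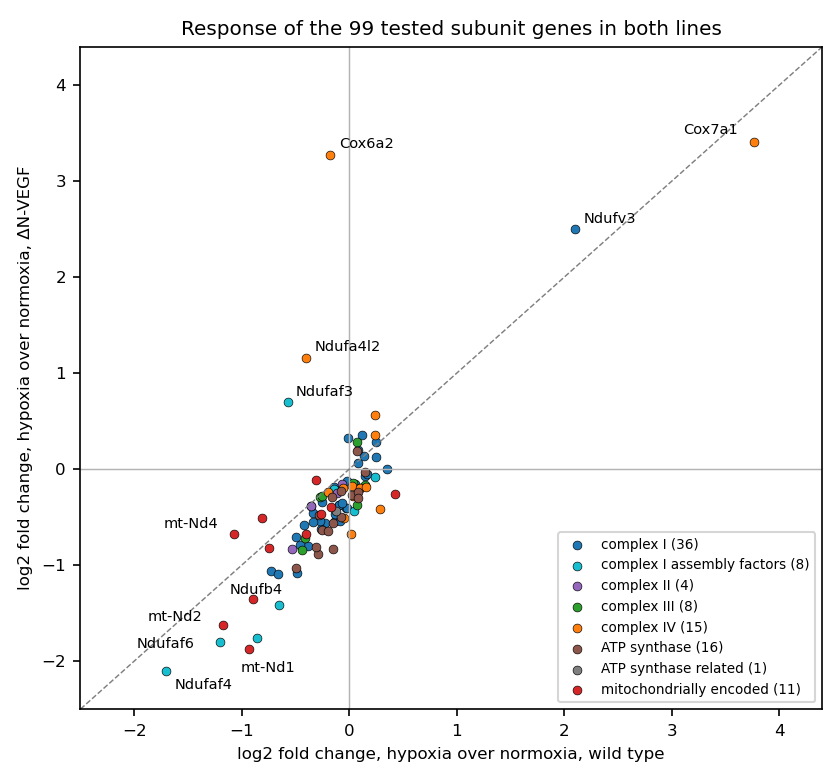
Log2 fold change of hypoxia over normoxia in wild type (x axis) and in the ΔN-VEGF line (y axis) for the 99 tested members, 1 point a gene, coloured by class, with the dashed line marking equal change. Most points lie below the line (83 of 99), Ndufv3 and Cox7a1 lie high in both lines, and Cox6a2 lies high in the ΔN-VEGF line only, at 3.28 against -0.17.

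In wild type the mitochondrially encoded genes gave the 5 largest falls among abundant members. In the ΔN-VEGF line mt-Nd1 and mt-Nd2 fell most, followed by the nuclear Ndufs1, Ndufa12 and Ndufb4. The mitochondrial falls were uneven. The 13 mitochondrially encoded genes lie on 1 small circular genome, read as long transcripts from both strands that are then cut into single messages. Of the 11 tested, 6 fell in wild type (median -0.75) and 7 in the ΔN-VEGF line (median -0.67), and none rose, where 18.3% and 26.4% of all genes fell. Of the 8 abundant ones alone, 5 fell in wild type and 6 in the ΔN-VEGF line, with medians of -0.78 and -0.67. This leaves out the genes whose sequence is almost wholly present in other genes, but keeps mt-Nd4 and mt-Co1, which share it in part. The 6 of all 11 that fell in wild type were mt-Nd1, mt-Nd2, mt-Nd3, mt-Nd4 and mt-Nd5 of complex I and mt-Cytb of complex III. Each also fell in the ΔN-VEGF line, and of these mt-Nd3 is not among the 8 abundant genes. mt-Nd6 was the seventh in the ΔN-VEGF line. Without wild-type normoxia sample 2, 8 of 12 tested fell in each line, with a wild-type median of -0.60. Of all genes, 26.9% then fell in wild type and 34.3% in the ΔN-VEGF line.

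mt-Nd1, which encodes a membrane subunit of complex I, measured 4382, 7071 and 4278 CPM (counts scaled to library size with TMM factors) in wild-type normoxia and 2927, 2392 and 2927 in wild-type hypoxia. In the ΔN-VEGF line it measured 6251, 6997 and 6089 CPM in normoxia and 1747, 1715 and 1830 in hypoxia. The groups did not overlap within either line, and the 3 hypoxic ΔN-VEGF samples were the lowest of the 12. The fitted log2 fold change of mt-Nd1 (± SE) was -0.93 ± 0.18 in the wild type (adjusted p = 0.0019). In the ΔN-VEGF line it fell by 1.87 ± 0.18 (adjusted p = 9.3e-06). The wild-type fall was 0.65 (adjusted p = 7e-05) without wild-type normoxia sample 2.

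mt-Nd2, another membrane subunit of complex I, measured 3197, 3683 and 3179 CPM in wild-type normoxia against 1594, 1260 and 1590 in hypoxia, and 3818, 5472 and 3901 CPM in ΔN-VEGF normoxia against 1395, 1468 and 1421 in hypoxia. No hypoxic sample reached any normoxic one in either line. It fell by 1.18 ± 0.15 in wild type (adjusted p = 0.00012) and by 1.62 ± 0.15 in the ΔN-VEGF line (adjusted p = 6.7e-06), a wild-type call that was kept without normoxia sample 2 (adjusted p = 2.6e-05).

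mt-Nd4 encodes a proton-pumping subunit of complex I. It measured 1131, 769 and 1172 CPM in wild-type normoxia and 512, 426 and 525 in hypoxia, and in the ΔN-VEGF line 1053, 1389 and 1052 CPM in normoxia and 744, 696 and 752 in hypoxia. Here the hypoxic ΔN-VEGF samples lay above the hypoxic wild-type ones, the opposite order to mt-Nd1. It fell by 1.07 ± 0.17 in wild type (adjusted p = 0.00055) and by 0.67 ± 0.17 in the ΔN-VEGF line (adjusted p = 0.0058). The wild-type fall was 1.23 without normoxia sample 2.

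mt-Cytb encodes cytochrome b, the electron-carrying core of complex III. It measured 4869, 3386 and 4504 CPM in wild-type normoxia and 2515, 2107 and 2645 in hypoxia, and in the ΔN-VEGF line 4203, 5701 and 4230 CPM in normoxia and 3324, 3064 and 3549 in hypoxia. Both lines separated without overlap, with falls of 0.81 ± 0.16 in wild type (adjusted p = 0.0026) and 0.51 ± 0.16 in the ΔN-VEGF line (adjusted p = 0.021). The ΔN-VEGF call was lost when normoxia sample 2, hypoxia sample 1 or hypoxia sample 2 of that line was left out, with an adjusted p of at most 0.08. mt-Nd5, a further proton-pumping subunit, fell by 0.75 (adjusted p = 0.0064) and 0.82 (adjusted p = 0.0024). With wild-type normoxia sample 2 left out, the wild-type falls of mt-Cytb and mt-Nd5 were 0.95 and 0.92.

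mt-Co1, which encodes the catalytic subunit of complex IV, was not called in either line. It measured 9454, 5806 and 9400 CPM in wild-type normoxia and 6988, 5879 and 7111 in hypoxia, and in the ΔN-VEGF line 7091, 7340 and 7372 CPM in normoxia and 6768, 6405 and 6960 in hypoxia. Sample 2 was the lowest of the wild-type normoxia group and lay below all 3 hypoxic samples. The changes were -0.30 (adjusted p = 0.17) and -0.12 (adjusted p = 0.58). Without that sample mt-Co1 fell by 0.50 in wild type (adjusted p = 0.00024).

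mt-Atp8, a small membrane subunit of the ATP synthase, changed by -0.17 in wild type (adjusted p = 0.46) and -0.40 in the ΔN-VEGF line (adjusted p = 0.063). mt-Nd6, the subunit encoded on the opposite strand from the others, changed by -0.40 in wild type (adjusted p = 0.18) and fell by 0.68 in the ΔN-VEGF line (adjusted p = 0.024). That call was lost when any 1 of 4 ΔN-VEGF samples was left out (normoxia 2 or 3, hypoxia 1 or 3), with an adjusted p of at most 0.075. Once wild-type normoxia sample 2 was left out, mt-Nd6 also fell in wild type, by 0.54 (adjusted p = 0.039), and mt-Atp8 fell in the ΔN-VEGF line (adjusted p = 0.025). The library kit does not mark strand, so reads of mt-Nd6 and of antisense RNA over the same bases cannot be told apart.

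**Figure D2:**
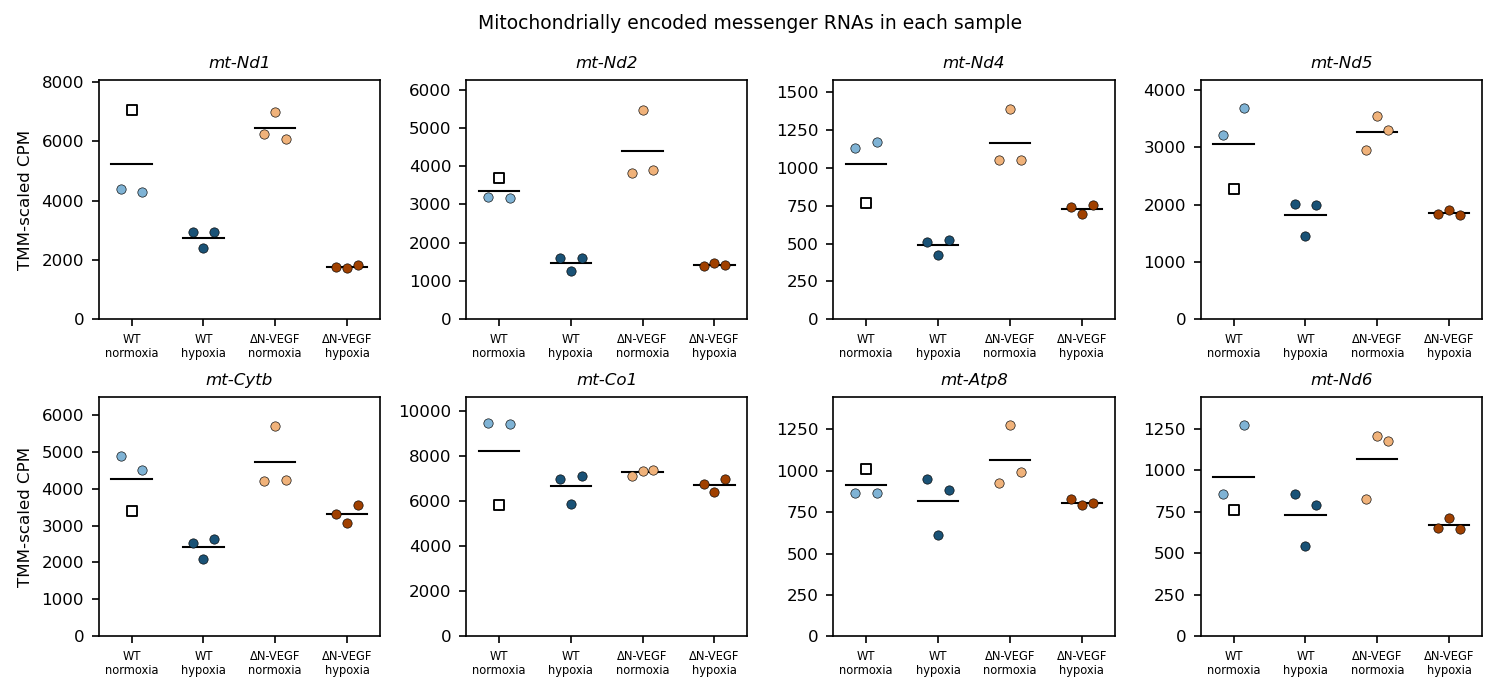
TMM-scaled CPM (y axis) of the 8 abundant mitochondrially encoded genes in each of the 12 samples by group, 1 point a sample, with bars at group means and an open square for wild-type normoxia sample 2. mt-Nd1 is lowest in hypoxic ΔN-VEGF cells, whereas mt-Nd4 and mt-Cytb are lowest in hypoxic wild type and mt-Co1 overlaps between conditions in wild type.

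The other 5 mitochondrially encoded genes were nearly without counts. Over the 12 samples mt-Co2 had 10 to 53 counts, mt-Co3 4 to 14, mt-Atp6 9 to 34, mt-Nd4l 0 to 2 and mt-Nd3 26 to 175. Per length, mt-Co2 averaged 0.739 FPKM (CPM per kilobase of exon, mean of 12 samples) and mt-Co3 0.269, against 4670 FPKM for mt-Co1 of the same complex. These are also the genes whose sequence recurs elsewhere in the mouse genome. Of all 80-base windows of the transcript, the length of 1 read, 99.5% in mt-Co2, 99.9% in mt-Co3, 99.5% in mt-Atp6, 98.6% in mt-Nd4l and 97.8% in mt-Nd3 are present in another annotated gene. The share was 61.3% for mt-Nd4, 37.6% for mt-Co1 and at most 5.21% for the other 6.

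The copies lie side by side on chromosome 1 (GRCm38), between 24611535 and 24616197, and are annotated as unprocessed pseudogenes. Gm28661 matches 681 bases of mt-Co2 with 0 mismatches, and Gm28437, Gm10925 and Gm10222 match mt-Co3, mt-Atp6 and mt-Nd4l in the same way. Gm28438 matches 345 bases of mt-Nd3 with 1 mismatch, T3C, counted from the first base of the mt-Nd3 transcript. The first 30 bases of both are shown because this base is the only difference over the 345 aligned bases, and it is in capitals.
mt-Nd3: atTaacctgtacactgttatcttcattaat
Gm28438: atCaacctgtacactgttatcttcattaat
Gm28438 held 265 to 814 counts, more than mt-Nd3 in every sample, so the fall of mt-Nd3 (0.89 in wild type and 1.35 in the ΔN-VEGF line, adjusted p = 0.027 and 0.0019) is given as uncertain. Gm28438 itself changed by 0.01 in wild type (adjusted p = 0.98) and fell by 0.65 in the ΔN-VEGF line (adjusted p = 0.019). The counts of mt-Co2, mt-Co3, mt-Atp6 and mt-Nd4l are likewise not read as levels of these genes.

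**Figure D3:**
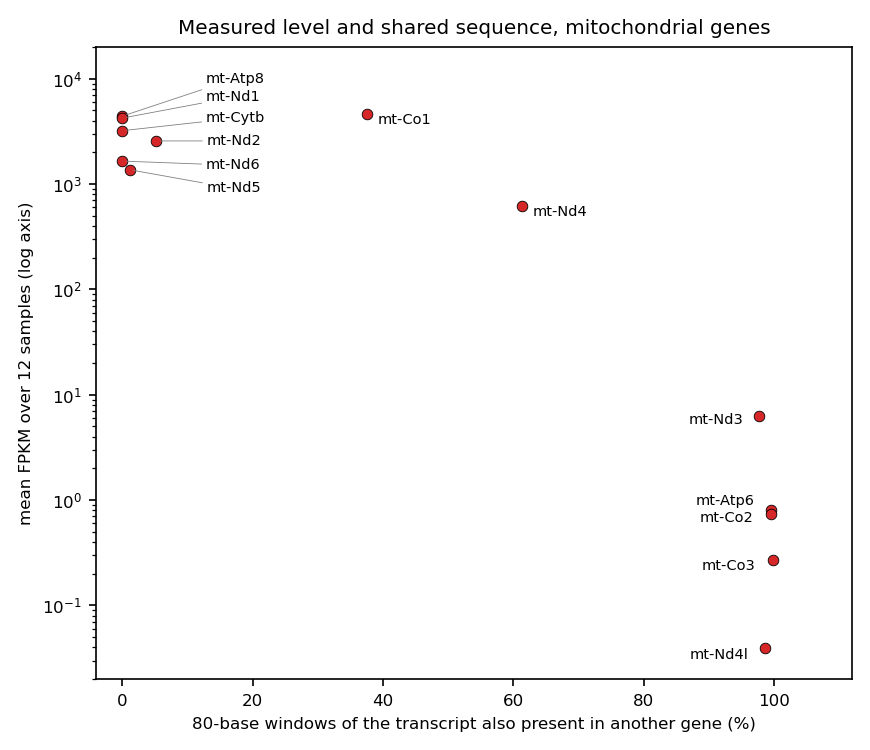
Mean FPKM over the 12 samples (y axis, log scale) of the 13 mitochondrially encoded genes against the percentage of their 80-base windows also present in another gene (x axis), 1 point a gene. The 5 genes with shares of 97.8% or more lie between 0.0391 and 6.29 FPKM, and the other 8 lie at 618 FPKM or above.

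As a share of all counts, the mitochondrially encoded protein-coding genes made up 3.08 ± 0.50% (SD, n = 3) in wild-type normoxia and 1.66 ± 0.22% in hypoxia, and 3.22 ± 0.23% and 1.44 ± 0.053% in the ΔN-VEGF line. The nuclear members made up 1.11 ± 0.085% and 0.883 ± 0.039% in wild type, and 1.16 ± 0.027% and 0.704 ± 0.017% in the ΔN-VEGF line. Both shares were lower in hypoxia, with no overlap between conditions in either line. A share is relative to total counts, and on that scale the median log2 change was -0.30 and -0.75 for the nuclear members and -0.30 and -0.41 for all tested genes, in wild type and ΔN-VEGF cells. The mitochondrial ribosomal RNAs went the other way: mt-Rnr1 rose by log2 fold changes of 1.35 and 1.05, and mt-Rnr2 by 1.44 and 0.64, in wild type and ΔN-VEGF cells (adjusted p between 5.4e-05 and 0.0059). Leaving out wild-type normoxia sample 2 gave 1.43 and 1.58 in wild type.

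Set against the nuclear subunits within each sample, the mitochondrially encoded genes lay lower in hypoxia by a margin that depended on which genes were counted. The median log2 CPM of the 11 tested mitochondrial genes exceeded that of the 79 tested nuclear structural subunits by 4.16 ± 0.39 in wild-type normoxia and 3.75 ± 0.39 in hypoxia. In the ΔN-VEGF line it did so by 4.14 ± 0.17 and 3.87 ± 0.07. The wild-type difference of -0.41 is close to the spread between its samples, which overlapped. It was -0.64, with no overlap, without wild-type normoxia sample 2 and -0.19 without wild-type hypoxia sample 2. The ΔN-VEGF difference of -0.27 is larger than its own spread, and those samples did not overlap, at 3.97 to 4.30 in normoxia and 3.79 to 3.92 in hypoxia. They were -0.91 and -0.95 over genes with a mean of at least 10 CPM, which leaves out the genes whose sequence is almost wholly shared.

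Complex I is the largest nuclear class and held the abundant gene with the largest rise, Ndufv3. Its 36 nuclear structural members were all tested. In wild type 5 fell (13.9%, against 18.3% of all genes) and 1 rose (median -0.10), and in the ΔN-VEGF line 18 fell (50%, against 26.4%) and 4 rose (median -0.38). When wild-type normoxia sample 2 was dropped, the wild type held 9 rises and 6 falls (median 0.05), neither above the 27.1% higher and 26.9% lower of all genes. Then 24 fell and 5 rose in the ΔN-VEGF line, beside 34.3% lower and 32.8% higher of all genes.

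Ndufs1, the largest subunit of complex I and a carrier of iron-sulfur clusters, measured 60.4, 99.3 and 64.1 CPM in wild-type normoxia and 48.5, 42.8 and 49.7 in hypoxia. In the ΔN-VEGF line it measured 80.7, 85.0 and 86.4 CPM in normoxia and 36.8, 39.8 and 41.5 in hypoxia. All hypoxic samples lay below all normoxic ones, and wild-type normoxia sample 2 was the highest of the 12. Ndufs1 fell by 0.67 ± 0.16 in wild type (adjusted p = 0.0083, or 0.40 without that sample, adjusted p = 0.0012) and by 1.09 ± 0.17 in the ΔN-VEGF line (adjusted p = 0.00023).

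Ndufb4, an accessory subunit of the membrane arm, measured 31.8, 28.6 and 28.6 CPM in wild-type normoxia and 17.2, 19.0 and 17.6 in hypoxia, and in the ΔN-VEGF line 36.9, 34.0 and 36.3 CPM in normoxia and 15.95, 18.5 and 17.02 in hypoxia. The conditions separated widely in both lines and wild-type normoxia sample 2 did not stand out. The falls were 0.72 ± 0.10 (adjusted p = 0.00015) and 1.06 ± 0.10 (adjusted p = 5.5e-06). Ndufv1, which binds NADH, fell by 0.46 (adjusted p = 0.031) and 0.79 (adjusted p = 0.0011), and Ndufa12, an accessory subunit, by 0.49 (adjusted p = 0.031) and 1.08 (adjusted p = 0.00019). The wild-type calls of Ndufv1 and Ndufa12 were lost in several of the fits that left out 1 sample, with an adjusted p of up to 0.12 over all alternatives. Without wild-type normoxia sample 2, those falls were 0.26 for Ndufv1 (adjusted p = 0.044) and 0.22 for Ndufa12 (adjusted p = 0.016).

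Ndufv3 encodes an accessory subunit of the NADH-oxidizing arm, next to Ndufv1 and Ndufv2, and was the abundant exception. It measured 78.8, 44.0 and 78.1 CPM in wild-type normoxia and 285.8, 297.0 and 279.2 in hypoxia, and in the ΔN-VEGF line 68.7, 58.3 and 66.9 CPM in normoxia and 357.0, 377.9 and 364.4 in hypoxia. Every hypoxic sample was more than 3-fold above every normoxic one, and the hypoxic ΔN-VEGF samples were the highest. Ndufv3 rose by 2.10 ± 0.19 in wild type (adjusted p = 9.4e-06) and by 2.50 ± 0.19 in the ΔN-VEGF line (adjusted p = 1.5e-06). Its neighbours in the complex did not go with it: Ndufv1 fell in both lines and Ndufv2 changed by -0.06 (adjusted p = 0.64) and fell by 0.35 (adjusted p = 0.0086). The rise was called under all 22 alternatives in wild type.

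The other complex I members that rose did so in the ΔN-VEGF line and by little. Ndufa7 rose by 0.36 (adjusted p = 0.014), Ndufs3 by 0.29 (adjusted p = 0.046) and Ndufb9, named after its values were seen, by 0.20 (adjusted p = 0.044), while with scaling by total counts alone Ndufa7 was at -0.04 and Ndufs3 at -0.11. The call of Ndufa7 was also lost without ΔN-VEGF hypoxia sample 2 and with no low-count filter. The call of Ndufs3 was kept in 9 of 22 alternatives, with an adjusted p of up to 0.4, and was lost in 10 of the 12 fits that left out 1 sample. With wild-type normoxia sample 2 left out, Ndufs3 rose in wild type too, by 0.36 (adjusted p = 0.0053). Scaling by total counts moved the median of all tested genes from -0.07 to -0.30 in wild type and from -0.01 to -0.41 in the ΔN-VEGF line.

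The complex I assembly factors, which build the complex but do not stay in it, fell in part in both lines. Of 8 tested, 3 fell in wild type (median -0.61) and 5 in the ΔN-VEGF line (median -0.92), and none rose. Of all genes, 18.3% fell and 18.2% rose in wild type, and 26.4% fell and 26.9% rose in the ΔN-VEGF line. Once wild-type normoxia sample 2 was left out, the wild-type median was -0.18, with 3 falls of which 2 were the same genes, beside 26.9% of all genes. Ndufaf3, which then fell by 0.91 in wild type (adjusted p = 0.0032), rose by 0.69 in the ΔN-VEGF line (adjusted p = 0.011). The examples given were chosen after their values were seen, since all lie under 10 CPM on average. Ndufaf4 measured 4.41, 14.1 and 4.22 CPM in wild-type normoxia and 2.18, 2.19 and 2.60 in hypoxia, and in the ΔN-VEGF line 6.22, 11.4 and 6.94 CPM in normoxia and 2.13, 1.71 and 1.87 in hypoxia. Both normoxia samples numbered 2 stood high, and the conditions did not overlap within either line. Ndufaf4 fell by 1.70 ± 0.44 (adjusted p = 0.01) and 2.10 ± 0.45 (adjusted p = 0.0023), and without wild-type normoxia sample 2 the wild-type fall was 0.88 (adjusted p = 0.0064). Ndufaf6 fell by 1.20 and 1.80 and Ndufaf5 by 0.65 and 1.41 in wild type and ΔN-VEGF cells. Without that sample Ndufaf6 fell by 0.79 in wild type and Ndufaf5, at -0.27, was no longer called there (adjusted p = 0.089).

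Of complex II, the succinate dehydrogenase, 2 of 4 members fell in each line, where 18.3% of all genes fell in wild type and 26.4% in the ΔN-VEGF line. Sdha, which binds FAD, and Sdhb, which holds the iron-sulfur clusters, form the catalytic part and were called lower, and the membrane anchors Sdhc and Sdhd were not called. The difference between the pairs was not tested. Without wild-type normoxia sample 2 all 4 were called lower in the ΔN-VEGF line, beside 34.3% of all genes. Sdhb measured 127.0, 193.9 and 118.6 CPM in wild-type normoxia and 102.0, 105.1 and 96.2 in hypoxia, and in the ΔN-VEGF line 148.9, 169.0 and 138.9 CPM in normoxia and 81.5, 90.7 and 85.1 in hypoxia. The conditions did not overlap, and wild-type normoxia sample 2 was again the highest. Sdhb fell by 0.54 ± 0.16 in wild type (adjusted p = 0.025) and by 0.83 ± 0.17 in the ΔN-VEGF line (adjusted p = 0.0015). The wild-type fall was 0.28 (adjusted p = 0.019) without that sample. The wild-type call was lost when any 1 of the 3 hypoxic wild-type samples was left out, with an adjusted p of at most 0.091 over all alternatives. Sdha fell by 0.35 ± 0.08 (adjusted p = 0.005) and 0.38 ± 0.08 (adjusted p = 0.0021). Sdhc changed by -0.07 and -0.16, and Sdhd by -0.11 and -0.25. Sdhd turned, without wild-type normoxia sample 2, to 0.32 in wild type (adjusted p = 0.042).

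In complex III, 1 of 8 members fell in wild type and 3 fell and 1 rose in the ΔN-VEGF line, with medians of -0.11 and -0.29, where 18.3% of all genes fell in wild type and 26.4% fell and 26.9% rose in the ΔN-VEGF line. When wild-type normoxia sample 2 was dropped, the counts were 2 rises and 1 fall in wild type (median 0.05, neither count above the background of that fit). In the ΔN-VEGF line 5 then fell and 1 rose, beside 34.3% and 32.8% of all genes. Uqcrc1, a core protein, changed by -0.41 in wild type (adjusted p = 0.056) and fell by 0.72 in the ΔN-VEGF line (adjusted p = 0.0023). Uqcrfs1, the Rieske iron-sulfur protein, changed by -0.25 and -0.28 with an adjusted p of 0.21 and 0.14. Without that sample the wild-type changes of Uqcrc1 and Uqcrfs1 were -0.18 and -0.01, and Uqcrfs1 was called lower in the ΔN-VEGF line (adjusted p = 0.0029). Uqcrh, the hinge protein that touches cytochrome c1, rose by 0.28 in the ΔN-VEGF line (adjusted p = 0.0074), a sign that flips to -0.12 with scaling by total counts alone. That call was also lost with no low-count filter.

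Complex IV had the smallest share of falls of the 5 complexes in the ΔN-VEGF line, 20% (beside 26.4% of all genes), and 4 members rose there (26.7%, beside 26.9% of all genes). Of 15 tested members none fell and 1 rose in wild type (median 0.03), beside 18.3% and 18.2% of all genes, and 3 fell and 4 rose in the ΔN-VEGF line (median -0.20). Without wild-type normoxia sample 2, 6 rose and 2 fell in wild type (median 0.20), beside 27.1% and 26.9% of all genes. In the ΔN-VEGF line 7 then fell and 5 rose, beside 34.3% and 32.8% of all genes. With all samples those that rose were Cox4i1, Cox6a2, Cox7a1 and Cox7a2l, each from a family with more than 1 isoform.

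The hypoxic isoform Cox4i2 was at the limit of detection. It had 0 to 2 counts in each of the 12 samples, under the limit of 3 counts that an absent gene allows, so neither a fold nor a ratio to Cox4i1 was formed. Its mean was 0.0244 FPKM against 351 FPKM for Cox4i1, the common form of the same subunit. Cox4i1 measured 464.7, 441.6 and 439.0 CPM in wild-type normoxia and 515.4, 589.3 and 489.5 in hypoxia, and in the ΔN-VEGF line 544.8, 504.1 and 529.8 CPM in normoxia and 651.4, 712.7 and 654.5 in hypoxia. The hypoxic samples lay above the normoxic ones in both lines. The change was 0.24 ± 0.09 in wild type (adjusted p = 0.052) and a rise of 0.35 ± 0.09 in the ΔN-VEGF line (adjusted p = 0.0062), which turned to -0.05 with scaling by total counts alone. The ΔN-VEGF call was also lost with no low-count filter. With wild-type normoxia sample 2 left out, the wild-type change was 0.24 and was called (adjusted p = 0.03).

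Ndufa4l2, the hypoxic counterpart of Ndufa4, was likewise low. It had 50, 5 and 48 counts in wild-type normoxia and 19, 13 and 28 in hypoxia, and in the ΔN-VEGF line 21, 6 and 10 counts in normoxia and 21, 15 and 25 in hypoxia. The wild-type groups overlapped, with normoxia sample 2 far below the others. The changes were -0.40 ± 0.61 (adjusted p = 0.64) and 1.16 ± 0.66 (adjusted p = 0.16). Without that sample both were called, a fall of 0.88 in wild type (adjusted p = 0.043) and a rise in the ΔN-VEGF line (adjusted p = 0.015). Per length it averaged 0.501 FPKM against 54.0 FPKM for Ndufa4.

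Ndufa4, a complex IV subunit despite its name, measured 59.5, 97.4 and 64.0 CPM in wild-type normoxia and 78.2, 72.1 and 72.5 in hypoxia, and in the ΔN-VEGF line 84.4, 107.1 and 86.3 CPM in normoxia and 54.9, 61.9 and 57.6 in hypoxia. Hypoxia lay below normoxia in the ΔN-VEGF line alone, with a fall of 0.67 ± 0.17 (adjusted p = 0.0067), beside a change of 0.01 in wild type (adjusted p = 0.96) that became a rise of 0.27 without normoxia sample 2 (adjusted p = 0.041). The log2 ratio of Ndufa4l2 to Ndufa4, with 2 counts added to each, moved by 0.02 in wild type (exact permutation test, two-sided, p = 1) and by 1.85 in the ΔN-VEGF line (exact p = 0.1, the smallest that 3 against 3 allows). Taken over both lines, with samples permuted within each line, it moved by 0.94 (exact p = 0.195, where 0.005 is the smallest possible). Once wild-type normoxia sample 2 was left out, the wild-type ratio moved by -1.10.

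Cox7a1, the heart and muscle form of subunit VIIa, showed the largest fold change of the tested members, at low counts. It had 0, 9 and 7 counts in wild-type normoxia and 57, 43 and 73 in hypoxia, and 6, 4 and 10 counts in ΔN-VEGF normoxia and 48, 45 and 68 in hypoxia. All 6 hypoxic samples had at least 43 counts and all 6 normoxic ones at most 10. The rise was 3.77 ± 0.56 in wild type (adjusted p = 0.00039) and 3.41 ± 0.55 in the ΔN-VEGF line (adjusted p = 0.00036). Its mean of 1.66 FPKM compares with 74.0 FPKM for Cox7a2, the common form, which changed by 0.16 and -0.19 with no call. When wild-type normoxia sample 2 was dropped, Cox7a2 was called in both lines, higher in wild type by 0.39 (adjusted p = 0.0021) and lower in the ΔN-VEGF line (adjusted p = 0.036).

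Cox7a2l, a family member known to take part in joining respiratory complexes into supercomplexes, measured 197.6, 137.7 and 195.9 CPM in wild-type normoxia and 204.0, 219.0 and 204.1 in hypoxia, and in the ΔN-VEGF line 174.6, 159.2 and 176.4 CPM in normoxia and 246.5, 258.0 and 250.4 in hypoxia. Hypoxic samples lay above normoxic ones in both lines, though by a small margin in wild type. It changed by 0.24 in wild type (adjusted p = 0.16), or by 0.09 without normoxia sample 2 (adjusted p = 0.27), and rose by 0.56 ± 0.13 in the ΔN-VEGF line (adjusted p = 0.0031), a call lost with scaling by total counts alone, at 0.16 (adjusted p = 0.43).

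Cox6a2, the heart and muscle form of subunit VIa, differed in pattern between the lines. It measured 5.78, 0.418 and 5.36 CPM in wild-type normoxia and 3.35, 3.29 and 3.62 in hypoxia, and in the ΔN-VEGF line 0.603, 1.02 and 0.564 CPM in normoxia and 7.74, 6.37 and 7.14 in hypoxia. Wild-type normoxia sample 2, at 18 counts, lay with the ΔN-VEGF normoxia samples at 23 to 43 counts and not with its own group at 253 and 278. Cox6a2 rose by 3.28 ± 0.69 in the ΔN-VEGF line (adjusted p = 0.0021), and in wild type it changed by -0.17 ± 0.61 (adjusted p = 0.85). The difference between the responses was 3.45 ± 0.91 (adjusted p = 0.066) with all samples and 3.96 (adjusted p = 3.3e-07) without sample 2. Without it Cox6a2 also fell in wild type, by 0.69 (adjusted p = 0.004). The common form Cox6a1, at 247 FPKM against 5.54, changed by 0.03 and -0.18 with no call, and 10.3% of the exon bases of Cox6a2 are overlapped on the other strand by Itgad.

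Of the remaining isoform pairs, Cox6b1 changed by 0.03 and -0.28 and Cox8a by -0.20 and -0.23, none called. Without wild-type normoxia sample 2, Cox6b1 rose by 0.22 in wild type (adjusted p = 0.035) and was called lower in the ΔN-VEGF line (adjusted p = 0.0031). Cox6b2 had 0 to 2 counts and Cox8b 0 in every sample.

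The ATP synthase showed no call in wild type and 9 falls among 16 tested members in the ΔN-VEGF line, with medians of -0.15 and -0.49. With wild-type normoxia sample 2 left out, the wild type held 3 rises and no fall with a median of 0.07, where 27.1% of all genes were called higher. In the ΔN-VEGF line 14 of the 16 then fell, where 34.3% of all genes were called lower, beside 26.4% with all samples. Atp5b, the catalytic beta subunit, measured 1365, 2108 and 1310 CPM in wild-type normoxia and 1261, 1403 and 1250 in hypoxia, and in the ΔN-VEGF line 1896, 1899 and 1805 CPM in normoxia and 988, 1046 and 998 in hypoxia. The wild-type groups overlapped and the ΔN-VEGF groups lay far apart. Atp5b fell by 0.89 ± 0.16 in the ΔN-VEGF line (adjusted p = 7e-04) and changed by -0.29 ± 0.16 in wild type (adjusted p = 0.17). Atp5a1, the alpha subunit, fell by 0.47 in the ΔN-VEGF line (adjusted p = 0.004) beside a change of -0.28 in wild type (adjusted p = 0.072). Without that sample the wild-type changes of Atp5b and Atp5a1 were -0.03 and -0.13.

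Atp5l, subunit g of the membrane part, was the only member called, with all samples, in the edgeR test of the difference between the responses of the lines. It measured 40.5, 53.8 and 46.8 CPM in wild-type normoxia and 41.1, 45.5 and 40.6 in hypoxia, and in the ΔN-VEGF line 58.6, 54.1 and 64.4 CPM in normoxia and 31.0, 33.9 and 34.2 in hypoxia. The wild-type groups overlapped, while in the ΔN-VEGF line normoxia held the 3 highest and hypoxia the 3 lowest values of the 12. Atp5l fell by 0.84 ± 0.12 in the ΔN-VEGF line (adjusted p = 0.00013) beside a change of -0.15 ± 0.12 in wild type (adjusted p = 0.34), a difference of -0.69 ± 0.16 (adjusted p = 0.047). The call of the difference was lost in 10 of the 12 fits that left out 1 sample.

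**Figure D4:**
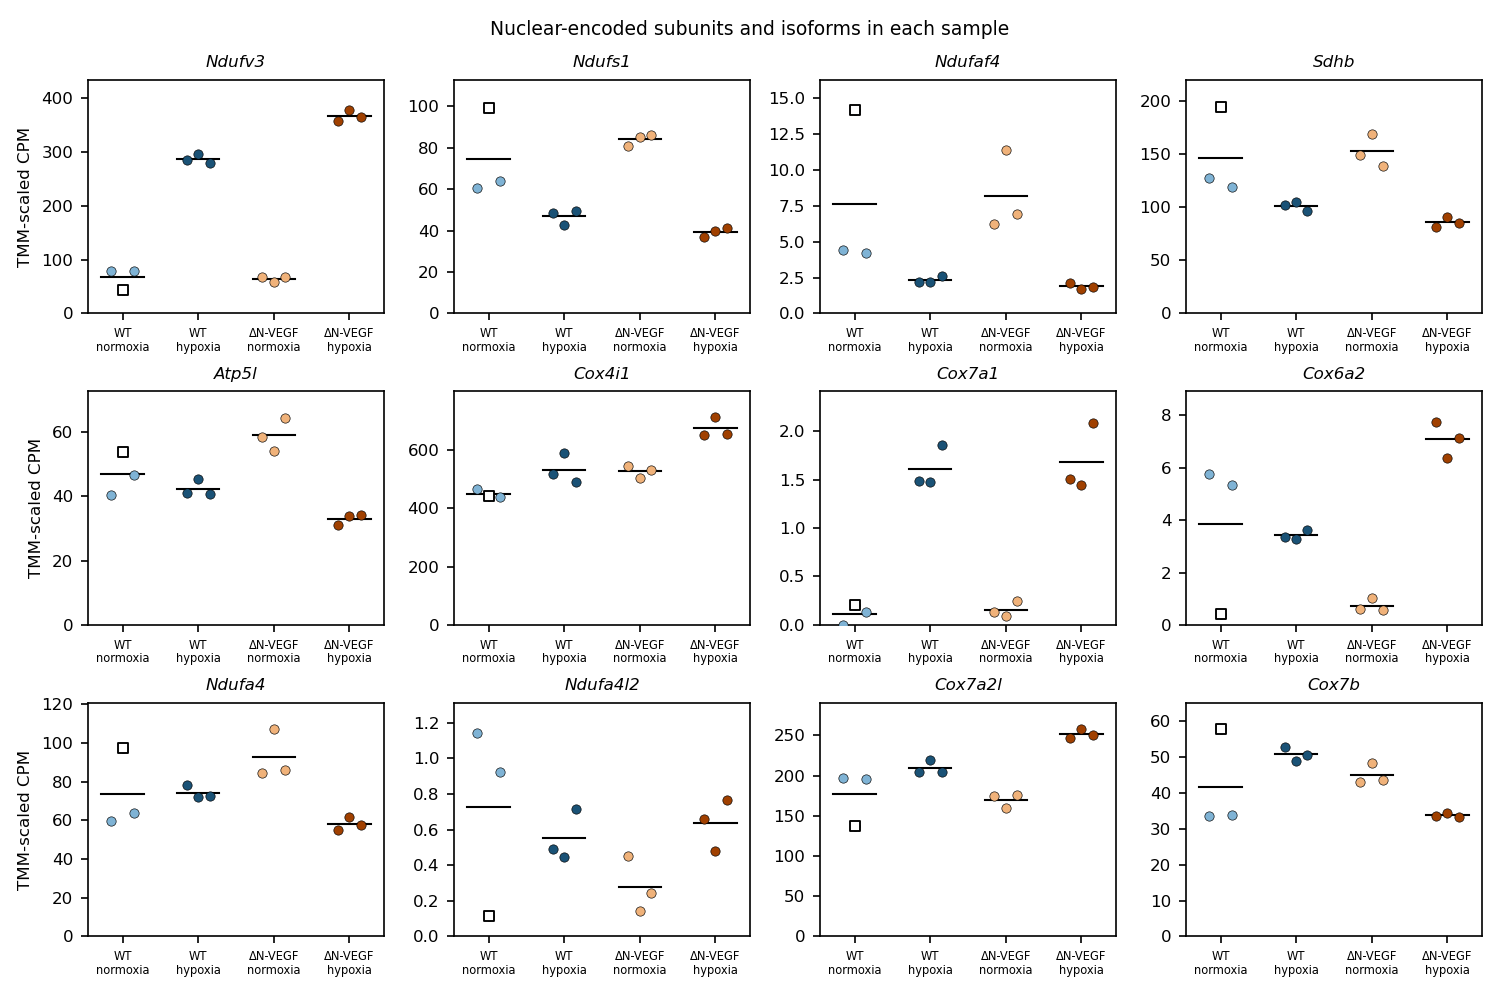
TMM-scaled CPM (y axis, from 0 in each panel) of 12 nuclear-encoded members in each sample, by group, with bars at group means and an open square for wild-type normoxia sample 2. Ndufv3 and Cox7a1 are high in all 6 hypoxic samples, and Atp5l and Ndufa4 are low in hypoxic ΔN-VEGF cells. The open square leaves its group in Ndufv3, Ndufs1, Ndufaf4, Sdhb, Cox6a2, Ndufa4, Ndufa4l2, Cox7a2l and Cox7b.

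The lines were next compared directly. In normoxia no member was called in either direction with all samples, where 1.39% of all genes were called higher in the ΔN-VEGF line and 2.97% lower. The median difference of the members was 0.13 beside -0.03 over all genes, 11 members had an unadjusted p below 0.05 (beside 19% of all genes), and DESeq2 called 3 higher and 2 lower (beside 2.69% and 5.47% of the genes it gave an adjusted p). With the replicate number as a block, though no label says that same-numbered samples were grown together, 1 member was higher, Cox6b1, at 0.49 (adjusted p = 0.032). When wild-type normoxia sample 2 was left out, 56 of 100 members were higher and 7 lower (median 0.30), against a background of 25.7% higher and 23.2% lower. By class, 11 of 16 ATP synthase members, 21 of 36 complex I members and 7 of 8 complex III members were then higher. Leaving out 1 sample thus moved the count of higher members from 0 to 56.

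In hypoxia 3 members were higher in the ΔN-VEGF line than in wild type and 4 were lower, or 3.03% and 4.04% against 10.8% and 9.36% of all genes. The higher ones were Cox4i1 by 0.34 (adjusted p = 0.022), Uqcrh by 0.35 (adjusted p = 0.0079) and mt-Nd4 by 0.58 (adjusted p = 0.032). None of the 3 was called with scaling by total counts alone. The lower ones were Atp5h, subunit d of the ATP synthase stalk, at -0.64 ± 0.10 (adjusted p = 0.0019), mt-Nd1 at -0.64 ± 0.18 (adjusted p = 0.027), Cox7b at -0.58 (adjusted p = 0.044) and Cox6c at -0.28 (adjusted p = 0.025), the last pair being small subunits of complex IV. Atp5h measured 185.7, 191.8 and 177.8 CPM in hypoxic wild type and 113.6, 124.3 and 119.4 in hypoxic ΔN-VEGF cells, with no overlap. Of the 7 calls, those of Atp5h and Uqcrh held whichever sample was left out. With no low-count filter the calls of Uqcrh, Cox4i1 and Cox6c were lost. mt-Nd4 was lost without any 1 of the 6 hypoxic samples, mt-Nd1, Cox4i1 and Cox6c without any 1 of 5 of them, and Cox7b without any 1 of 9 samples. In the fit that left out wild-type normoxia sample 2, which belongs to neither hypoxic group, all 7 were kept and 8 were higher and 29 lower (median -0.12), against 21.2% higher and 21.2% lower of all genes. That fit also tested more genes, 15145 in place of 14724, and the cause of the larger counts was not tested.

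For the difference of the responses, 1 member was called, Atp5l, with the lower response in the ΔN-VEGF line, and none was called in the other direction, although 16 had a positive fitted difference, up to the 3.45 of Cox6a2. That compares with 1.15% of all genes called lower and 2.21% called higher. The fitted fold change was lower in the ΔN-VEGF line for 83 of 99 members, with a median difference of -0.28 beside 0.03 over all genes. At an unadjusted p below 0.05 there were 14 members, beside 21% of all genes, and DESeq2 called 1 higher and 4 lower, beside 6.99% and 3.33% of the genes it gave an adjusted p. When wild-type normoxia sample 2 was dropped, 58 of 100 members were lower and 8 higher (median -0.44) against a background of 23% and 21.4%, and 14 of 16 ATP synthase and 22 of 36 complex I members were among the lower. mt-Nd1 then differed by -1.23 (adjusted p = 1.1e-05, beside -0.94 and 0.067 with all samples) and mt-Nd4 by 0.55 (adjusted p = 0.015), so mitochondrially encoded genes were called in both directions, 2 each way.

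**Figure D5:**
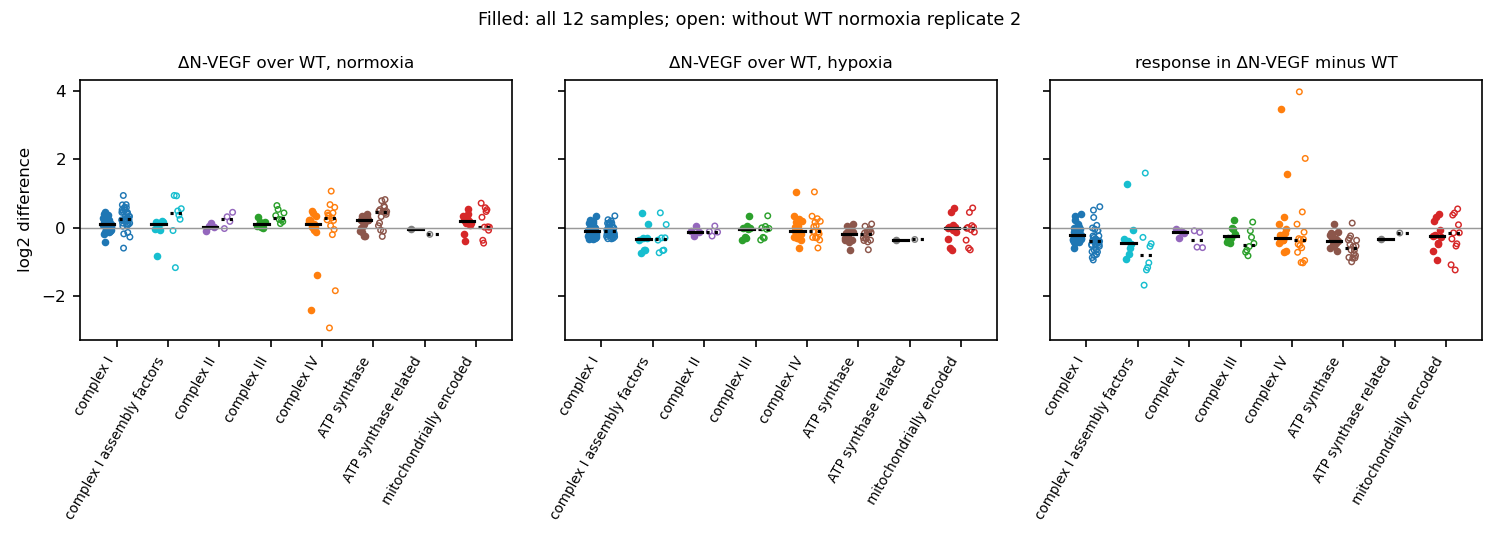
Log2 difference (y axis) between the lines in normoxia, between the lines in hypoxia, and between their responses, 1 point a tested member by class, filled with all 12 samples and open without wild-type normoxia sample 2, with bars at class medians (dotted for the open points). In the first panel the open points of most nuclear classes lie higher than the filled ones, and in the third lower, while in the second the sets nearly coincide.

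Genes around the chain that the naming rule leaves out were read from lists. The shares of all genes to set beside their counts are 18.3% lower and 18.2% higher in wild type, 26.9% and 27.1% there without wild-type normoxia sample 2, and 26.4% lower and 26.9% higher in the ΔN-VEGF line. Of 4 electron carriers and neighbours, 2 fell in wild type and 3 in the ΔN-VEGF line: Cyc1, the cytochrome c1 of complex III, fell by 0.86 and 1.23, and Cycs, cytochrome c itself, by 1.49 and 2.73, while Chchd4, an import factor, was the further one in the ΔN-VEGF line. The medians of this list were -1.003 and -1.51, but without wild-type normoxia sample 2 the wild-type median was -0.23 and the falls of Cyc1 and Cycs were 0.38 and 0.49, both still called. Of 35 tested assembly factors, 12 fell and 2 rose in wild type (12 and 7 without that sample, median -0.10) and 14 fell and 4 rose in the ΔN-VEGF line, with medians of -0.20 and -0.34. Among them Sdhaf1, for complex II, fell by 1.74 and 1.79, Cox10, for heme a synthesis, by 1.29 and 1.69, and Taco1, a translation activator of mt-Co1, by 1.03 and 1.47. Without that sample the wild-type falls of Sdhaf1, Cox10 and Taco1 were 1.43, 0.82 and 0.95. Of 29 genes for mitochondrial DNA upkeep and RNA handling, 3 fell and 3 rose in wild type (2 and 8 without that sample, median -0.01) and 10 fell and 5 rose in the ΔN-VEGF line, with medians of -0.16 and -0.46. Of these Fastkd1, a mitochondrial RNA-binding protein, fell by 1.81 and 2.05, and Polrmt, the mitochondrial RNA polymerase, named after its values were seen, by 0.86 and 1.06.

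Of 8 nuclear regulators of respiratory genes, 3 fell and 1 rose in each line, with medians of -0.43 and -0.21. Without wild-type normoxia sample 2, 2 fell and 2 rose in wild type, with a median of -0.07. The coactivator Ppargc1a had 55, 20 and 80 counts in wild-type normoxia and 5, 2 and 1 in hypoxia, and 11, 17 and 15 counts in ΔN-VEGF normoxia and 5, 1 and 1 in hypoxia. It was called lower in both lines (adjusted p = 0.00082 and 0.027), and with hypoxic counts about the limit of 3 no fold is given. The log2 fold changes of its relatives Ppargc1b and Pprc1 were -2.28 and -0.85 in wild type, then -2.43 and -1.02 in ΔN-VEGF, and the factor Yy1 rose by 0.52 and 0.97. Without that sample Pprc1 changed by -0.32 in wild type and was no longer called (adjusted p = 0.06). Of 7 genes tied to the switch of mitochondria in hypoxia, 5 rose and 1 fell in each line, with medians of 2.74 and 3.24. Bnip3, which marks mitochondria for removal, rose by 4.45 and 4.54, Higd1a, a small protein that binds complex IV, by 4.44 (5.17 without wild-type normoxia sample 2) and 4.30, and Pdk1, which blocks pyruvate entry to the citric acid cycle, by 3.50 and 3.45.

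Promoter sequence was matched for 76 of the 94 nuclear members (80.9%), from 250 bases before to 50 after the start in RefSeq on GRCm38.p6. The hypoxia response core ACGTG, searched on both strands and contained in the E-box CACGTG, was present in 25.0% of member promoters and 21.8% of the promoters of 27025 genes. The nuclear respiratory factor 1 site was in 9.21% against 1.07%, the YY1 core in 14.5% against 3.19%, the ETS core CCGGAAG in 23.7% against 9.93%, and the E-box in 7.89% against 8.09%. Both members that rose in both lines held ACGTG, as did 2 of the 8 matched members that fell in both. The windows of these 4 promoters are shown because they carry the same letters in genes that went opposite ways, with the core in capitals on the strand of the gene.
Ndufv3, rose: tgcgattggtgaACGTGgacgcggggcgga
Cox7a1, rose: ggtaaagtgctgCACGTccttgggcgaaga
Ndufv1, fell: gcagagggcgacACGTGagcctggtttact
Sdha, fell: accctacctcagACGTGttgccaccgccgc
The windows lie at chr17:31520114-31520143 on the plus strand, with the core 12 bases after the start of Ndufv3, and at chr7:30184168-30184197 on the plus strand, with the core 10 bases after that of Cox7a1, where the core is on the opposite strand. Those of Ndufv1, at chr19:4012906-4012935, and Sdha, at chr13:74350348-74350377, are on the minus strand, with the core 168 and 125 bases before the start. In Ndufv1 the core lies within an E-box, so it is present on both strands there. A match is a description of the letters in the window and no evidence that a factor binds there.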

How the data were processed

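RNA of 12 NIH3T3 samples (TruSeq RNA kit v2) was sequenced by the authors, trimmed with Trim Galore and cutadapt 1.10, aligned with TopHat2 2.1.0 and Bowtie2 2.2.6 and counted per gene with HTSeq 0.6.1 (Ensembl release 94); the strand setting is not given in the sources used here. The deposited values are raw counts. TopHat2 and HTSeq leave out or lose reads that match several places, which affects genes with copies.

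From the counts, TMM factors (0.825 to 1.21), a low-count filter (filterByExpr), edgeR 4.0.16's quasi-likelihood test with 1 mean per group over all 12 samples and Benjamini-Hochberg adjustment over 14724 genes were computed in R 4.3.3; a call is an adjusted p below 0.05. Shared sequence and promoters were read from reference tables. The scripts were tested on simulated data. DESeq2 1.42.0, other scalings and filters, a replicate block and leaving out samples were the alternatives.

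Samples were grouped by their labels. Samples with the same number deviated together between the lines in normoxia (r = 0.38, 0.50 and 0.36), and elsewhere r was -0.018 to 0.11. No label says that same-numbered samples were grown together, and in both normoxia groups sample 2 differed most from the others. Whether the samples are paired was not tested. The members and lists were chosen with earlier results of these data known. Genes named were the mitochondrially encoded ones, isoform families, core subunits, the 5 largest called changes each way per comparison at 10 CPM or more and up to 4 per list.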

Additional observations from a re-analysis of the deposited data

Results flagged for a closer look

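1 result was singled out because its response to hypoxia differed between the lines by the interaction test itself. Atp5l, subunit g of the ATP synthase, had a response in ΔN-VEGF cells minus that in wild type of -0.69 on the log2 scale (edgeR, adjusted p = 0.047). The call held in 8 of 21 alternatives, with an adjusted p between 1e-06 and 0.14, and the sign was negative in all 21. Without wild-type normoxia sample 2 the difference was -0.81 (adjusted p = 0.00032). Of the Atp5l transcript's 80-base windows 5.72% are also present in other genes.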

How the results depend on the processing

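The counts of members moved with the samples included, the scaling and the fold threshold. Scaling by total counts alone gave 45 falls in wild type, beside 32.7% of all genes. In ΔN-VEGF cells it gave 84 falls and 3 rises, beside 44.5% and 15.3% of all genes. Between the lines it gave 1 higher member in normoxia, beside 1.21% of all genes. In hypoxia it gave 41 lower and 0 higher, beside 22.2% and 4.57%. For the difference of responses it gave 13 lower, beside 5.13% of all genes. It also turned Cox4i1 to -0.05, Ndufa7 to -0.042, Ndufs3 to -0.114 and Uqcrh to -0.117 in ΔN-VEGF cells. A 2-fold threshold gave 4 falls in wild type, 11 falls and 3 rises in ΔN-VEGF cells, 0 and 0 between the lines in hypoxia and 0 for the difference. DESeq2 gave 4 rises in wild type, 3 higher and 2 lower in normoxia, and 1 higher and 4 lower for the difference. With RLE size factors the difference had 0 lower. With no low-count filter there were 4 rises in ΔN-VEGF cells, 1 higher and 2 lower in normoxia, 1 higher in hypoxia and 1 higher for the difference; a minimum of 10 counts in every sample gave 4 rises in wild type. Only the 6 samples compared gave 8 falls in wild type, where 1563 of 14137 tested genes fell. Between the lines in hypoxia they gave 11 higher and 36 lower members, where 3864 genes were higher and 4032 lower of 13845 tested. Without both normoxia samples numbered 2 there were 28 rises in wild type, 59 higher and 7 lower in normoxia, 13 and 35 in hypoxia, and 11 higher and 62 lower for the difference, beside 32.8% of all genes higher in wild type, 27.8% and 25.8% in normoxia, 27.5% and 28.3% in hypoxia, and 25.8% and 27% for the difference; Sdhd in wild type turned to 0.315, and Uqcrfs1 between the lines in normoxia to 0.224. With 1 sample left out Sdhd ran from -0.303 to 0.316 and Uqcrfs1 from -0.127 to 0.234, the positive ends without wild-type normoxia sample 2.

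Leaving out 1 sample at a time gave 2 to 21 rises and 11 to 22 falls in wild type, 6 to 12 and 32 to 68 in ΔN-VEGF cells, 0 to 56 higher and 0 to 7 lower in normoxia, 1 to 8 and 1 to 29 in hypoxia, and 0 to 8 and 0 to 58 for the difference; the upper ends came without wild-type normoxia sample 2. The mitochondrial minus nuclear difference was -0.911 and -0.953 over genes of at least 10 CPM, -0.839 and -1.007 without overlapping or light-strand genes, -0.441 in ΔN-VEGF cells from summed counts, and -0.636 to -0.190 and -0.358 to -0.191 with 1 sample left out. The Ndufa4l2 ratio in wild type was -0.008 with 5 counts added and -1.104 to 0.685 with 1 sample left out (-0.173 without hypoxia sample 3), and 1.405 to 2.271 in ΔN-VEGF cells. The replicate block gave 1 higher member in normoxia and, among the 6 normoxia samples, a fit chosen after seeing the data, 0 and 0; it left every other count within 1.5 times. The cause of these changes was not tested. The planned Cox4i2 ratio was not run at 0 to 2 counts. Genes under about 10 counts a sample, and those sharing reads, limit what depth can show.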
